A study of Mus musculus with 2 samples.

Results

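The genes described here are the Hox genes, the TALE genes (Meis, Pbx, Pknox, Tgif and Irx), the sine oculis homeobox genes with their Eya partners, and the single homeobox genes Hopx and Hhex. They were chosen by symbol in the deposited mouse gene table, counting only rows with a single symbol, and 71 of 23309 rows matched. Of the 71, 39 are Hox protein genes, 18 are TALE genes, 10 are genes of the sine oculis and Eya families, 2 are Hopx and Hhex, and 2 are the antisense RNA genes Hoxa11as and Six3os1. The 4 Eya genes carry no homeobox and were included as partners of the sine oculis proteins.

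The cells were cultured mouse bone marrow progenitors with the genotype Cebpaf/f;CreER, obtained by lineage depletion and grown with IL3. All of them, in both conditions, had been transduced with the retroviruses MIGR1-HA-Hoxa9 and MIGR1-Flag-Meis1, so tagged copies of 2 of the genes described here were supplied to every culture from a viral promoter. They were then given 5 nM 4OHT (4-hydroxytamoxifen, which activates CreER) or its vehicle, ethanol, for 72 h. Each condition has 1 deposited value per gene, which joins 2 replicates, so no spread between replicates can be given. The sources used here give neither the number of mice or cultures nor a 4OHT-treated culture without loxP sites, so loss of Cebpa and other effects of 4OHT or Cre cannot be told apart.

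Hox proteins are transcription factors that bind DNA through a homeodomain. Their genes lie in 4 clusters, and in blood the 5′ part of the Hoxa cluster and part of the Hoxb cluster are known to be active in stem cells and early progenitors and to be shut down as cells mature. TALE proteins of the Pbx and Meis classes bind DNA together with Hox proteins, and Hoxa9 with Meis1 is a known driver pair of acute myeloid leukaemia. Proteins of the sine oculis family bind DNA and recruit Eya proteins, which are coactivators with phosphatase activity.

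Values are in FPKM, a level scaled by transcript length and sequencing depth. This lets levels be compared between genes, with a limit for Hoxa9 and Meis1 given below. The values of all rows summed to 673516 FPKM in 4OHT cells and 684536 FPKM in vehicle cells. The table gives levels and not read counts, and the sequencing depth is therefore unknown. A gene was called changed where the authors' deposited table gave a valid test and a q-value under 0.05, and "rose" and "fell" are used only of such genes. Cebpa had 42.8 FPKM in 4OHT cells and 109 FPKM in vehicle cells, which left 39.2%, and q for this gene was 0.00165 in the authors' deposited table. Of the 7 markers listed for haematopoietic progenitors, each reached at least 1 FPKM. Kit had 32.8 FPKM in 4OHT cells and 20.1 FPKM in vehicle cells. Cd34 had 493 FPKM in 4OHT cells and 284 FPKM in vehicle cells. These 2 were the only progenitor markers called, both as higher, and no change was called for the other 5. That is 28.6% of the 7, all tested, against 5.91% of all tested rows, 2.80% as higher and 3.11% as lower. By value alone, 4 of the 7 were above vehicle and 3 were below it. Of the 12 listed markers of marrow stroma and endothelium, cells that also use Hox and sine oculis genes, 1 reached 1 FPKM. It was Pdgfrb, which rose, with 13.3 FPKM in 4OHT cells and 6.62 FPKM in vehicle cells. Lepr, below that level, fell, with 0.283 FPKM in 4OHT cells and 0.678 FPKM in vehicle cells, and the stromal genes Col3a1, Dcn and Lum were listed at 0 in both conditions. Pdgfrb and Lepr were the only 2 of the 12 that were tested, too few to set beside the 5.91% called of all tested rows. The 12 markers summed to 13.6 FPKM in 4OHT cells and 7.49 FPKM in vehicle cells, nearly all of it Pdgfrb, and their part in the results below was not tested. The 5 lymphocyte markers were all below 1 FPKM.

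Most of the 71 genes were silent or nearly so. In both conditions 33 were listed at 0, which is 46.5%, against 29.3% of all rows of the table. A further 25 were above 0 and below 1 FPKM, and 13 had 1 FPKM or more in whichever condition was higher, which is 18.3% against 47.1% of all rows. A listed 0 is not proof of absence, since the row of Hmgcs1, an enzyme that every cell uses, is also listed at 0, although that row lies on an unplaced part of chromosome 13. The authors tested 16 of the 71. Of these, 1 rose (Eya2) and 1 fell (Hopx), and 14 did not pass the test. Of the 11953 rows tested across the whole table, 5.91% were called, 2.80% as higher and 3.11% as lower, and 2 of 16 is a small count to set beside those shares. At an unadjusted deposited p under 0.05 the count was 3 of 16, with Hhex added, against 12.3% of all tested rows.

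**Figure D1:**
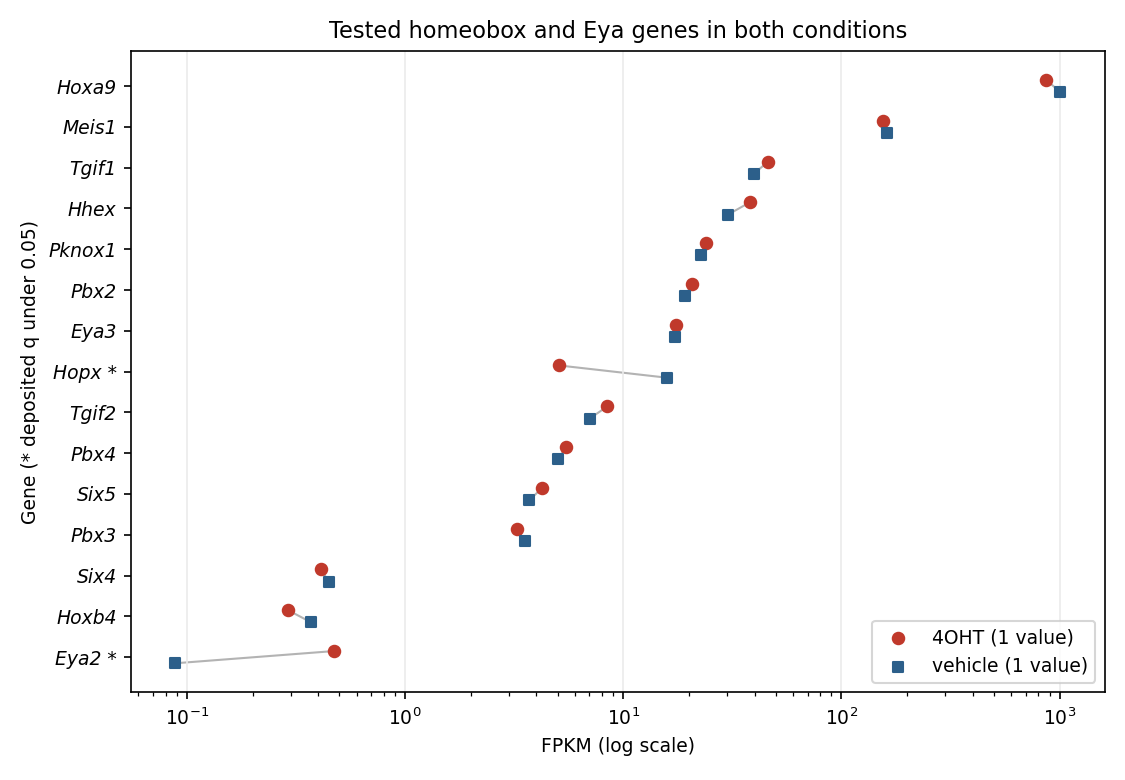
Level in FPKM (log axis) of 15 of the 16 tested genes, with a circle for the 4OHT value and a square for the vehicle value of each gene, ordered by vehicle level; each condition has 1 value, so there are no error bars. The pairs lie close together except for Hopx (5.09 FPKM in 4OHT cells, 15.9 FPKM in vehicle cells) and Eya2 (0.474 FPKM in 4OHT cells and 0.0886 FPKM in vehicle cells).

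The gene that fell was Hopx. It encodes a small homeodomain protein that lacks the residues needed to bind DNA and is known, in heart, to act through partners such as serum response factor. Hopx had 5.09 FPKM in 4OHT cells and 15.9 FPKM in vehicle cells, so 4OHT cells held 32.0% of the vehicle level, a 3.12-fold fall. Its q in the authors' deposited table was 0.00165. That is the lowest value any row has there, and Hopx shares it with other rows, among them Cebpa, Kit, Cd34 and Mllt3. On the log2(FPKM + 1) scale, which adds a pseudocount of 1 before the log and understates the change of low genes, its ratio was -1.47. Among the 71 genes it ranked 10th by level in 4OHT cells and 8th in vehicle cells. In these bulk cultures, fewer cells that express a gene and less RNA per cell cannot be told apart. On mm9 the deposited locus is chromosome 5, 77516011 to 77544148.

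Hopx has 2 annotated starts, and the 250 bases before each are shown because Hopx was the only one of the 71 genes that fell while Cebpa was lowered. The sequences are from RefSeq on GRCm38.p6, minus strand, written 5′ to 3′ and ending at the base before the start. Capitals mark matches to a loose form of the C/EBP motif, TTNNGNAA, searched on both strands.
Hopx upstream start, chr5:77115124-77115373: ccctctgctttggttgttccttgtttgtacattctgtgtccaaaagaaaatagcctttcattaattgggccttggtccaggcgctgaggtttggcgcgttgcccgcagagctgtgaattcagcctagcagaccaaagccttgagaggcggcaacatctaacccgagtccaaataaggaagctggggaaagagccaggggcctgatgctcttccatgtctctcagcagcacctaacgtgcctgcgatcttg
Hopx downstream start, chr5:77095268-77095517: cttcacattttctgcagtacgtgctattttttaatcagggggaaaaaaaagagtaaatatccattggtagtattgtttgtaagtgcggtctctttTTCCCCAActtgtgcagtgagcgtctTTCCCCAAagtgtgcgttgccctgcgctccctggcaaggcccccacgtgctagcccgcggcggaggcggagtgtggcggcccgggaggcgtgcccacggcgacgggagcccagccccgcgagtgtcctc

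The window of the downstream Hopx start held 2 copies of the same 8 bases, TTCCCCAA, beginning 155 and 129 bases before the start, and that of the upstream start held none. The loose motif is common: 36.8% of 32851 promoter windows of the same length held it. The tighter form TTGCNNAA, whose matches are all matches of the loose form too, was in 9.56% of windows and in neither Hopx window. Windows were found for 10 of the 14 genes that reached 1 FPKM or were called, 15 windows in all, and 3 of the 15 held the loose motif (1 each of Hopx, Meis1 and Tgif1) while none held the tight one. The Meis motif TGACAG (15.9% of all windows) was in 1 of the 15, of Six5, and the combined Hox and Pbx motif TGATTNAT (2.82% of all windows) in 1, of Tgif1. Of these motifs, the Hopx windows held only the loose C/EBP form. A match of letters does not show binding, and the deposited FPKM values do not separate the 2 starts.

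Among the Hox genes, Hoxa9 stood alone. It had 868 FPKM in 4OHT cells and 1010 FPKM in vehicle cells, 85.9% of the vehicle level, and did not pass the test (q = 0.901 in the authors' deposited table). That placed it 123rd of all rows in 4OHT cells and 119th in vehicle cells. Hoxa9 made up 99.93% of the summed FPKM of the 39 Hox genes in 4OHT cells and 99.91% in vehicle cells. The other 38 Hox genes summed to 0.648 FPKM in 4OHT cells and 0.878 FPKM in vehicle cells. The next highest, Hoxb4, was 2981-fold below Hoxa9 in 4OHT cells and 2715-fold below it in vehicle cells.

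The deposited row does not separate the transduced Hoxa9 from the resident gene, but the rows of its neighbours in the cluster give their levels. The deposited Hoxa9 locus on mm9 is chromosome 6, 52174053 to 52177369. Hoxa7, on one side (52165623 to 52168572), had 0.00738 FPKM in 4OHT cells and 0.00926 FPKM in vehicle cells. Hoxa10, on the other side (52181196 to 52190853), was listed at 0 in both conditions, as were Hoxa11, Hoxa11as and Hoxa13. The neighbours on both sides, which early progenitors of normal marrow are known to express with Hoxa9, were therefore at or near 0 with and without 4OHT. Hoxa3, Hoxa4, Hoxa5 and Hoxa6 share one deposited locus that spans them all, and none exceeded 0.0656 FPKM in either condition.

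**Figure D2:**
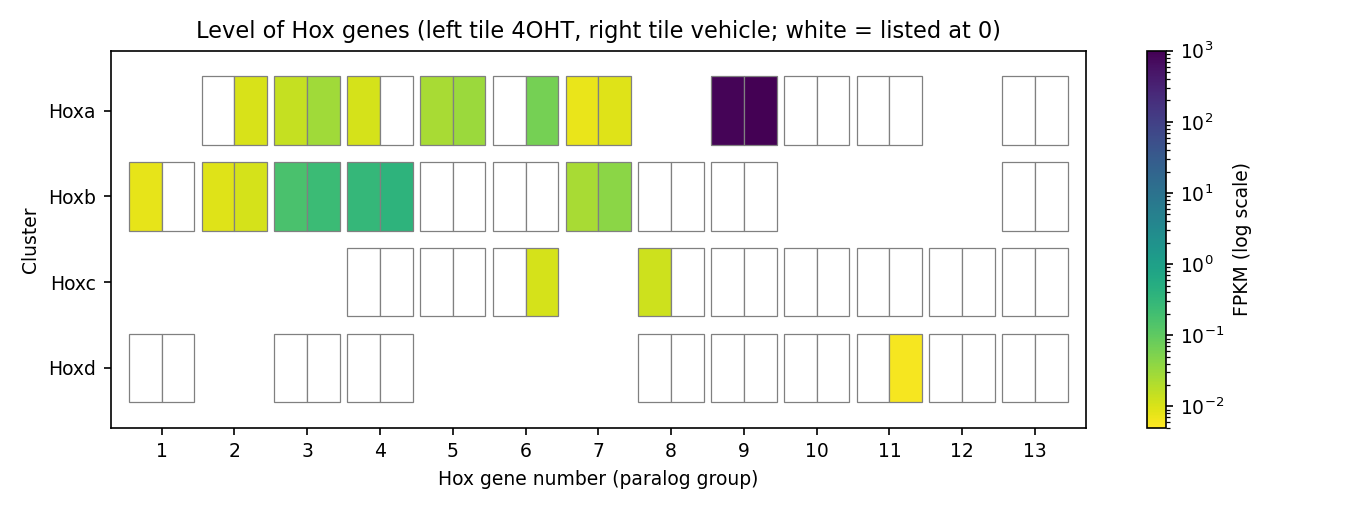
Level of 38 Hox genes by cluster (rows) and gene number (columns), with 4OHT in the left tile and vehicle in the right tile of each gene, colour giving FPKM on a log scale and white tiles listed at 0. Hoxa9, at 868 FPKM in 4OHT cells and 1010 FPKM in vehicle cells, is the only dark pair, and the next highest pairs are Hoxb4 and Hoxb3.

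Most of the remaining Hox signal lay at the 3′ side of the Hoxb cluster. Hoxb4, a gene known for expanding blood stem cells when overexpressed, had 0.291 FPKM in 4OHT cells and 0.372 FPKM in vehicle cells and did not pass the test (q = 1.00 in the authors' deposited table). The adjacent gene Hoxb3 had 0.168 FPKM in 4OHT cells and 0.244 FPKM in vehicle cells and was not tested. Hoxb7 had 0.0251 FPKM in 4OHT cells and 0.0419 FPKM in vehicle cells, and Hoxb5, Hoxb6, Hoxb8, Hoxb9 and Hoxb13 were listed at 0. In the Hoxc cluster 7 of 9 genes were listed at 0 in both conditions, and in the Hoxd cluster 8 of 9, against 3 of 11 in Hoxa and 5 of 10 in Hoxb. The highest value in the Hoxc cluster was 0.0128 FPKM in 4OHT cells and 0.0111 FPKM in vehicle cells. Of all 39 Hox genes, 3 were above 0 in 4OHT cells only (Hoxa4, Hoxb1 and Hoxc8) and 4 in vehicle cells only (Hoxa2, Hoxa6, Hoxc6 and Hoxd11). Each of these was below 0.1 FPKM and none was tested. Across all 23309 rows, 763 were above 0 in 4OHT cells only and 576 in vehicle cells only.

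Meis1, the transduced partner of Hoxa9, differed little in level between the conditions. It had 155 FPKM in 4OHT cells and 162 FPKM in vehicle cells, 95.7% of the vehicle level, and did not pass the test (q = 1.00 in the authors' deposited table). Hoxa9 stood 5.59-fold above Meis1 in 4OHT cells and 6.23-fold above it in vehicle cells, on the FPKM scale. As for Hoxa9, the row does not separate viral from resident transcripts. The sources used here do not give the lengths of the viral transcripts. The length scaling of both rows, and their folds over each other and over other genes, are therefore uncertain. The resident paralogs were near 0. Meis2 had 0.00570 FPKM in 4OHT cells and 0.00708 FPKM in vehicle cells, and Meis3 had 0.0495 FPKM in 4OHT cells and 0.0844 FPKM in vehicle cells, and neither was tested.

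The Pbx genes, whose proteins pair with Hox and Meis proteins on DNA, were led by Pbx2. Pbx2 had 20.8 FPKM in 4OHT cells and 19.1 FPKM in vehicle cells, Pbx4 had 5.47 FPKM in 4OHT cells and 5.02 FPKM in vehicle cells, and Pbx3 had 3.25 FPKM in 4OHT cells and 3.54 FPKM in vehicle cells. The 3 tested Pbx genes did not pass the test, where 5.91% of all tested rows were called. The authors' deposited table gave each of the 3 a q of 1.00. Pknox1, whose product also binds Pbx proteins and is known as Prep1, had 23.9 FPKM in 4OHT cells and 22.7 FPKM in vehicle cells (q = 1.00 in the authors' deposited table), and its paralog Pknox2 was listed at 0. Meis1 stood 6.50-fold above Pknox1 in 4OHT cells and 7.16-fold above it in vehicle cells.

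Tgif1 and Tgif2 encode TALE proteins that act as corepressors of TGF-beta and retinoid signalling. Tgif1, the highest of the 71 genes after Hoxa9 and Meis1, had 46.3 FPKM in 4OHT cells and 39.6 FPKM in vehicle cells, and q was 0.811 in the authors' deposited table. Tgif2 had 8.46 FPKM in 4OHT cells and 7.03 FPKM in vehicle cells, with q = 0.864 there. Both values were above vehicle, by 16.8% for Tgif1 and 20.4% for Tgif2, and neither passed the test. The testis gene Tgif2lx2 was listed at 0. Of the 6 Irx genes, a TALE branch known from embryonic patterning, 4 were listed at 0 in both conditions, and Irx3 (0.00681 FPKM) and Irx5 (0.0268 FPKM) were above 0 in 4OHT cells only and were not tested. Across all 23309 rows, 763 were above 0 in 4OHT cells only and 576 in vehicle cells only. Of all 18 TALE genes 7 reached 1 FPKM and were tested, and none passed the test. Of all tested rows 5.91% were called, and 7 genes are few to set beside that share.

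The gene that rose was Eya2, a coactivator and phosphatase that partners sine oculis proteins. It had 0.474 FPKM in 4OHT cells and 0.0886 FPKM in vehicle cells, a 5.35-fold rise (q = 0.0243 in the authors' deposited table). Both levels were below 1 FPKM, and on the log2(FPKM + 1) scale the ratio was 0.44. On mm9 its locus is chromosome 2, 165420528 to 165597227. Eya3, the family member these cells used most, had 17.5 FPKM in 4OHT cells and 17.3 FPKM in vehicle cells (q = 1.00 in the authors' deposited table), which put it 36.9-fold above Eya2 in 4OHT cells and 195-fold above it in vehicle cells. Eya3 thus made up 97.2% of the summed Eya FPKM in 4OHT cells and 99.4% in vehicle cells. Eya4 had 0.0239 FPKM in 4OHT cells and 0.0121 FPKM in vehicle cells and was not tested, and Eya1 was listed at 0.

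No sine oculis gene passed the test, where 5.91% of all tested rows were called. Six5, whose human counterpart lies beside the myotonic dystrophy gene, had 4.26 FPKM in 4OHT cells and 3.72 FPKM in vehicle cells. Six4 had 0.411 FPKM in 4OHT cells and 0.447 FPKM in vehicle cells. Both had q = 1.00 in the authors' deposited table. Six2 had 0.0292 FPKM in 4OHT cells and 0.00953 FPKM in vehicle cells, Six3 had 0.0111 FPKM in 4OHT cells and 0.0282 FPKM in vehicle cells, and neither was tested. Six6 and the antisense gene Six3os1 were listed at 0.

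Hhex encodes a homeodomain repressor of early blood and endothelial progenitors and was the 4th highest of the 71 genes in each condition. It had 38.1 FPKM in 4OHT cells and 30.3 FPKM in vehicle cells, 126% of the vehicle level. Its unadjusted p was 0.0480 in the authors' deposited table, and after adjustment over all tested rows it did not pass (q = 0.394). Hhex stood 7.48-fold above Hopx in 4OHT cells and 1.90-fold above it in vehicle cells. Its mm9 locus is chromosome 19, 37509331 to 37515221.

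Set beside the whole table, the 13 genes of at least 1 FPKM had a median log2 ratio of 0.07 on the log2(FPKM + 1) scale, against 0.00031 for the 10989 rows at that level. Of the 13, 8 were above vehicle and 5 below, and of all rows at that level 5505 were above and 5484 below. Without the transduced Hoxa9 and Meis1, the other 11 genes had a median of 0.10, with 8 above and 3 below. The ratio was within 0.5 of 0 for 12 of 13 genes (92.3%) and for 92.7% of all rows at that level. Hopx was the exception. Apart from Hopx, the ratios ran from -0.22 for Hoxa9 to 0.32 for Hhex.

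**Figure D3:**
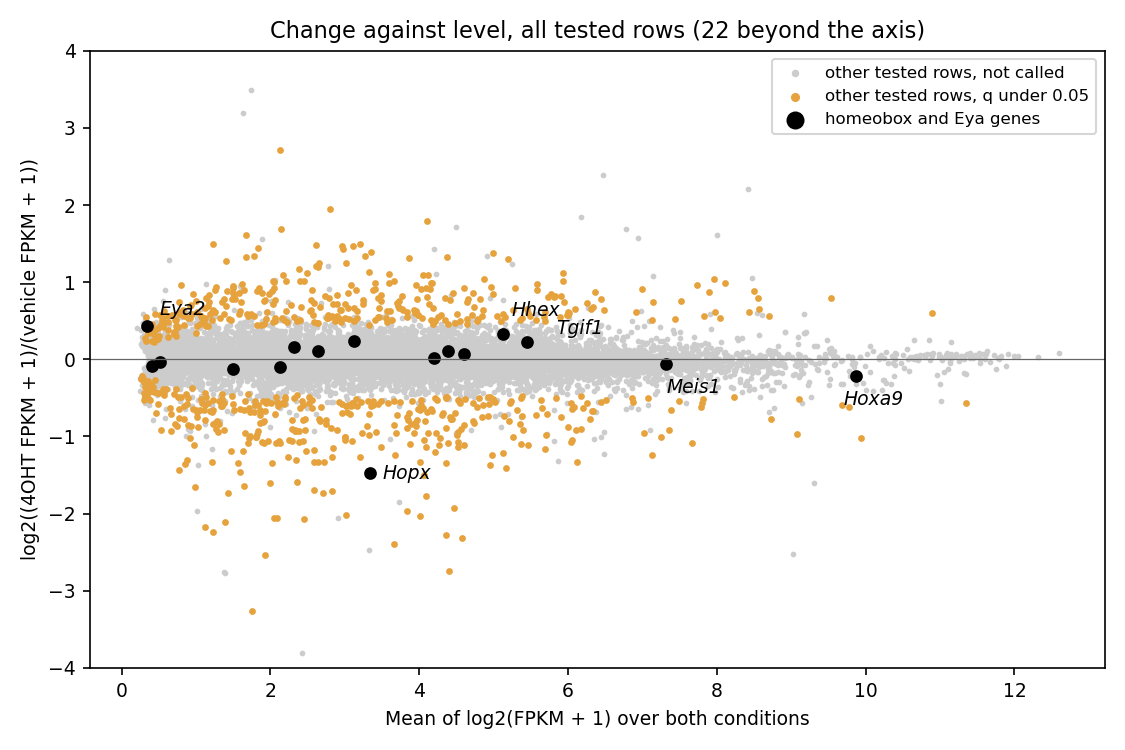
Log2 ratio of 4OHT over vehicle against mean level, both on the log2(FPKM + 1) scale, for tested rows, with 22 rows beyond the axis; grey and orange points are other rows not called and called at q under 0.05, and black points are the 16 tested homeobox and Eya genes. Hopx, at -1.47, lies well below the band of rows that were not called. The other black points, Eya2 at 0.44 among them, lie at ratios that rows not called also reach at similar levels.

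The smallest change called at each level was set beside the changes of these genes. Rows were grouped by their level in the higher condition. From 20 to 100 FPKM, where Hhex, Tgif1, Pknox1 and Pbx2 lay, the smallest called change was 0.47 in log2 FPKM ratio with no pseudocount, and the changes of these 4 genes ran from 0.08 to 0.33 on that scale. Above 100 FPKM the smallest called change was 0.49, against -0.22 for Hoxa9 and -0.06 for Meis1. From 5 to 20 FPKM it was 0.49, against -1.64 for Hopx, 0.01 for Eya3, 0.12 for Pbx4 and 0.27 for Tgif2. From 1 to 5 FPKM it was 0.58, against -0.12 for Pbx3 and 0.20 for Six5. Below 1 FPKM it was 0.77, against 2.42 for Eya2, -0.35 for Hoxb4 and -0.12 for Six4. These are the smallest changes that were called, not a measured detection limit, and a change that was not called does not show that a gene was equal in the 2 conditions.

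Genes that control Hox expression were expressed, and 1 of them rose. The list held 35 chromatin and Cdx regulators: the MLL and menin complex with its elongation partners, the MOZ complex, Polycomb subunits, demethylases and the Cdx factors that activate Hox genes in the embryo. Of these, 32 reached 1 FPKM, 1 rose, none fell and 31 did not pass the test, so 3.13% were called, against 5.91% of all tested rows. Mllt3, which encodes AF9, an elongation factor subunit and frequent fusion partner of MLL, rose to 10.0 FPKM in 4OHT cells, against 5.91 FPKM in vehicle cells, a 1.69-fold difference (q = 0.00165 in the authors' deposited table). The most abundant were a pair of core MLL-type methyltransferase subunits: Wdr5 had 67.9 FPKM in 4OHT cells and 67.2 FPKM in vehicle cells, and Ash2l had 62.3 FPKM in 4OHT cells and 60.3 FPKM in vehicle cells. Kmt2a, the MLL gene, listed under the older symbol Mll1, had 7.00 FPKM in 4OHT cells and 6.26 FPKM in vehicle cells, and Men1, the menin gene, had 29.0 FPKM in 4OHT cells and 33.1 FPKM in vehicle cells. Ezh2, the Polycomb methyltransferase, had 43.2 FPKM in 4OHT cells and 37.5 FPKM in vehicle cells. The Polycomb subunit gene Cbx2 had 9.90 FPKM in 4OHT cells and 7.58 FPKM in vehicle cells, and the authors' deposited table gives it an unadjusted p of 0.0309 and a q of 0.291. Cbx2 and Mllt3 were the only regulators at an unadjusted deposited p under 0.05, 6.25% of the 32 tested, against 12.3% of all tested rows. Cdx1, Cdx2 and Cdx4 were listed at 0. The list median was 0.06 on the log2(FPKM + 1) scale, and 24 of the 32 were above vehicle, against 5505 of the 10989 rows of at least 1 FPKM.

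Other homeobox genes outside these families gave no call. Of 45 listed, 14 were listed at 0 in both conditions, 19 were above 0 and below 1 FPKM, and 12 reached 1 FPKM. None of the 15 tested passed on the deposited q, against 5.91% of all tested rows, and none had an unadjusted p under 0.05, against 12.3%. Cux1, a repressor of broad use, was the highest, with 90.5 FPKM in 4OHT cells and 78.5 FPKM in vehicle cells, and Adnp, a chromatin regulator, followed with 32.5 FPKM in 4OHT cells and 29.2 FPKM in vehicle cells. The list median was 0.11, with 9 of 12 above vehicle, against 5505 of 10989 rows. Zeb2, a zinc finger and homeobox factor, had 6.23 FPKM in 4OHT cells and 7.76 FPKM in vehicle cells (q = 0.453 in the authors' deposited table).

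**Figure D4:**
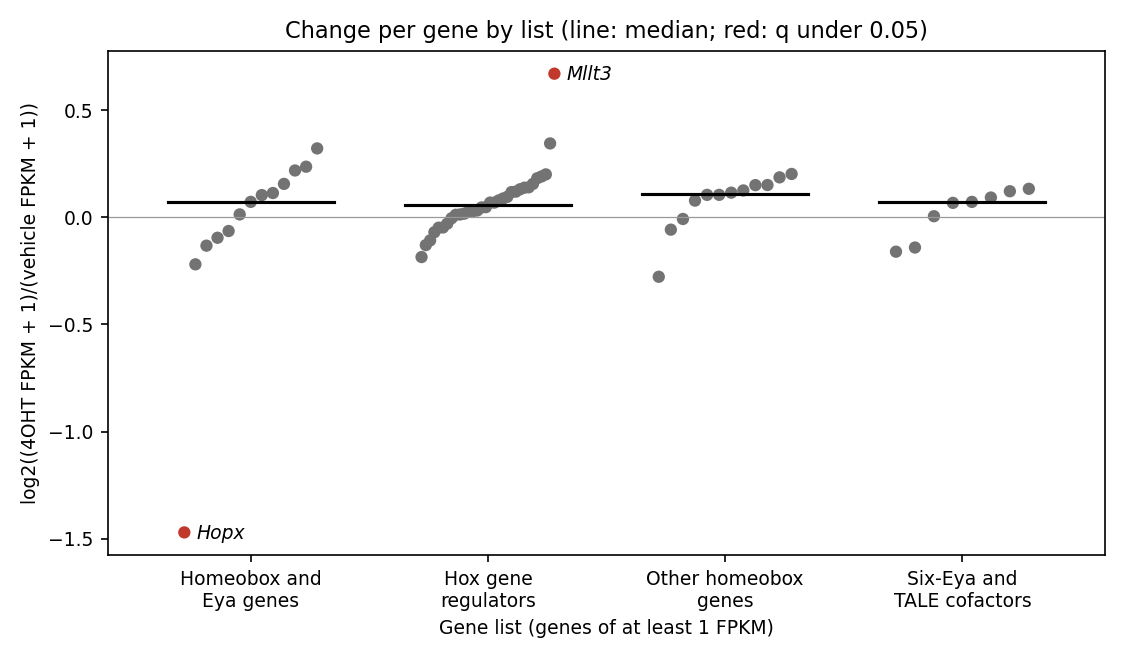
Log2 ratio of 4OHT over vehicle on the log2(FPKM + 1) scale for each gene of at least 1 FPKM, by list, sorted within a list, with the list median as a line and called genes in red. Hopx, at -1.47, and Mllt3, at 0.67, are the 2 called genes among those shown, and the medians of the lists lie between 0.06 and 0.11.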

How the data were processed

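RNA was measured in 2 samples, 4OHT and vehicle, each joining 2 replicates. Per the labels' protocols, total RNA was column-purified with DNase and made into Illumina TruSeq RNA libraries, with no word on strand in the sources used here, so antisense and overlapping genes cannot be told apart. Per the submitters' processing notes, the build was mm9 and the tools named, without their roles, were Cuffdiff 2.0.2, Bowtie2 2.0.0.7 and CASAVA 1.8.2.

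Per the file headers, each gene has a single deposited FPKM value in each condition. It also gives the authors' deposited p-value and q-value; the p-values of tested rows are whole multiples of 5e-05, and which test made them is not known. Adjusting the p-values of the 11953 tested rows by Benjamini-Hochberg gave that q-value within 5.28e-07. Among rows above 0 in both conditions the most frequent FPKM ratio of 4OHT over vehicle was 0.853 (66 rows), then 1.71 (22 rows), steps of one size and its double; absolute depth is unknown.

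Computed here, with Python 3.11.15 and pandas 2.3.3, were ratios, sums, ranks, log2 ratios with a pseudocount of 1, and counts at q under 0.05. No test was run, since each condition has 1 value. Scripts were tested on simulated data. Coordinates are the deposited loci on mm9, starts from 1; promoter windows are RefSeq on GRCm38.p6. No column of other samples was present. Named were every called gene, every gene of at least 1 FPKM, Hoxa7, Hoxa10 and Eya1, and, of the lists of Hox regulators and other homeobox genes, the called genes and the 2 highest; Cebpa checked the labels; the other genes outside the 71 that are named, from the marker and cofactor lists too, were chosen after their values were seen, as was the tight C/EBP motif. Single values of 3 members are not reported here. The members and lists were chosen with earlier results of these data known.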

Additional observations from a re-analysis of the deposited data

How the results depend on the processing

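The fall of Hopx was kept at q under 0.01, at q under 0.1, and with p-values adjusted over rows of at least 1 FPKM only. The count of members that rose was 0 instead of 1 at q under 0.01 and 0 when only rows of at least 1 FPKM were adjusted, since Eya2 has q = 0.0243 in the authors' deposited table and lies below 1 FPKM. For all rows, 205 were higher at q under 0.01 instead of 335. The members' median log2 ratio was -0.0023 with no filter on low values, which takes in genes near 0. Of 60 alternative values for 20 named genes (pseudocount 0.1, a rescaled 4OHT column, q under 0.01), 59 kept direction and call. The other 1, Eya2 at q under 0.01, lost its call at an unchanged log2 ratio of 0.44. This count says little about robustness, since the call rests on the deposited q, which the pseudocount and rescaling leave alone. A pseudocount added to both values cannot reverse a direction, a stricter q can only remove calls, and a looser q can only add them. Rescaling multiplied the 4OHT column by one factor, which moved every log2 FPKM ratio without a pseudocount by 0.00045, and less on the log2(FPKM + 1) scale. Leaving out a replicate was not possible with 1 deposited value per condition. No paired analysis was possible because each sample joins its replicates 1 and 2 in one value. Depth limits the silent genes: a listed 0 has no upper limit without counts.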

Other observations

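Cofactors that work with sine oculis, Eya and TALE proteins were measured too. Of 10 listed, 8 reached 1 FPKM and none passed on the deposited q, against 5.91% of all tested rows, or had an unadjusted p under 0.05. Ctbp1, a corepressor that binds the Tgif1 protein, had 86.3 FPKM in 4OHT cells and 79.2 FPKM in vehicle cells. The deacetylase gene Hdac3 had 67.4 FPKM in 4OHT cells and 67.2 FPKM in vehicle cells. Dach1, the dachshund partner of sine oculis and Eya proteins, had 7.36 FPKM in 4OHT cells and 8.34 FPKM in vehicle cells. Trib2, known as a direct target of Meis1, had 1.20 FPKM in 4OHT cells and 1.42 FPKM in vehicle cells. Pbxip1, whose product binds Pbx proteins and was looked at after its value was seen, had 19.7 FPKM in 4OHT cells and 18.8 FPKM in vehicle cells.

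Non-coding rows inside the Hox clusters, also picked after their values were seen, were near 0. Hotair, in the Hoxc cluster, was listed at 0 in both conditions, as were the microRNA rows Mir196b, beside Hoxa9 and Hoxa10, and Mir10a, in the Hoxb cluster. Mira, in the Hoxa cluster, had 0.0940 FPKM in 4OHT cells and 0.0329 FPKM in vehicle cells and was not tested. A library of this kind does not capture mature microRNAs well, so the microRNA rows give no level of the mature forms.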
